A study of Mus musculus with 6 samples.

Results

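J-domain cochaperones of the cytosol, also called HSP40 proteins, were followed in mouse bone marrow-derived mast cells (BMMCs) after activation with the calcium ionophore ionomycin. The set names 10 genes: Dnaja1, Dnaja2 and Dnaja4 of class A, Dnajb1, Dnajb2, Dnajb4, Dnajb5 and Dnajb6 of class B, and Dnajc2 and Dnajc7 of class C. A member counted as measured when a row of the expression table was annotated with its symbol and no other, and where several rows qualified the one with the highest mean was to be used. This held for 9 of the 10 genes, each with 1 row, among 30102 genes in the table. The 1 row that names Dnaja1 also names the microRNA gene Mir207, so Dnaja1 has no value here.

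The samples were 3 ionomycin and 3 naive cultures of C57BL/6J BMMCs, a primary culture grown from femoral marrow in 5 ng/mL interleukin 3 and 5% supernatant of CHO-KL cells as a source of stem cell factor, and matured for 6 weeks. Ionomycin cells spent 1 h in Tyrode's buffer with 1 µg/mL ionomycin. Naive cells spent the same hour in that buffer without it. Both were then kept in culture medium for 3 h before total RNA was hybridised to whole-transcript Affymetrix arrays, so the naive cells share every wash and change of medium. The labels do not state that replicates came from separate animals or cultures, so a p-value here reflects how far these samples vary, which could be technical variation alone.

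A J domain is a short helical module whose conserved histidine, proline and aspartate switch on the ATPase of HSP70, so that HSP70 closes on a client protein. Class A proteins carry a glycine- and phenylalanine-rich stretch and a zinc-binding region besides the J domain, class B proteins lack the zinc-binding region, and class C proteins share with them only the J domain. Some J-domain genes are heat shock genes that HSF1 switches on through repeats of GAA and its inverse, and others are made at a steady level in most cells.

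Values are log2 signals as the authors deposited them, so a difference of 1 is a doubling. A level was called above background when its mean over the arrays exceeded 5.99, the 95th percentile of chemosensory receptor genes. All 9 measured members passed this mark. All 9 mast cell markers, among them Kit, Fcer1a, Ms4a2 and Cpa3, were above it too, with array means over the list of 12.88 to 12.90 after ionomycin and 12.85 to 12.96 in naive cells. Of 31 markers of other blood and stromal cells 27 were measured, 22 of them above background. The mean of these 27 ran from 7.25 to 7.39 after ionomycin and from 7.21 to 7.26 in naive cells. Of the 36 measured markers 0 passed limma's threshold for a difference (adjusted p under 0.05). Over all genes 0.289% passed as higher and 0.0598% as lower, so 0 of 36 says little. Before adjustment 7 markers were higher and 4 lower with limma p under 0.05, where 10.2% and 5.44% of all genes were. Single mast cell markers lay on both sides of 0, from a log2 difference of -0.62 for Ms4a2, a chain of the IgE receptor (12.13 ± 0.18 after ionomycin and 12.75 ± 0.23 in naive cells, SD, n = 3 each), to 1.04 for Hdc, the enzyme that makes histamine (11.98 ± 0.19 after ionomycin and 10.95 ± 0.50 in naive cells). With a block of 2 levels, replicate 1 against the other numbers, 2 of the 36 markers passed, Ms4a2 lower (limma adjusted p = 0.0102) and the eosinophil marker Siglecf higher (log2 difference 0.56, adjusted p = 0.0210). In that fit 677 of all 30102 genes were called higher and 744 lower. Cd68, a macrophage lysosomal protein that mast cells can also make, was at 11.17 ± 0.43 after ionomycin and 11.45 ± 0.83 in naive cells (SD, n = 3 each). Basophil markers were well above background too, and 2 of them varied widely between replicates. Mcpt8 was at 9.62 ± 0.86 after ionomycin and 9.53 ± 0.72 in naive cells, and Prss34 at 9.39 ± 1.15 and 9.33 ± 0.89. Cd200r3 was at 11.03 and 11.32, and the megakaryocyte marker Itga2b at 11.60 and 11.66. In such bulk RNA fewer cells of a type and less RNA per cell cannot be told apart, and the part of cell make-up in the differences was not tested. The arrays with replicate number 1 stood apart in both groups, at -21.2 (ionomycin) and -48.0 (naive) on the first principal component, while the other 4 arrays lay between 13.0 and 21.9.

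At 4 h, 2 of the 9 measured members rose, Dnajb1 and Dnaja4, both more than 2-fold, 0 fell and 7 did not pass (limma, Benjamini-Hochberg adjusted p under 0.05 over all 30102 genes). The count of members was 1, Dnaja4, with the replicate number as a block, and 1 with each array centred on its own median. Over all genes 0.289% were called higher and 0.0598% lower by the same test, 87 and 18 genes, against 69 and 32 with centred arrays. The members were chosen with earlier results of these data known, so these shares are given for scale only. At an unadjusted limma p under 0.05 no member was lower, where 5.44% of all genes were, which in a list of 9 says little. In order of size Dnajb1 stood at place 66 and Dnaja4 at place 99 of all 30102 differences. The median difference of the 9 members was 0.14 on the log2 scale, against 0.05 over all genes. With centred arrays the medians were 0.07 for the members and -0.01 for all genes. Of the 9, 8 were above 0, as were 64.6% of all genes. With centred arrays 4 of the 9 were below 0, as were 16322 of all 30102 genes.

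**Figure D1:**
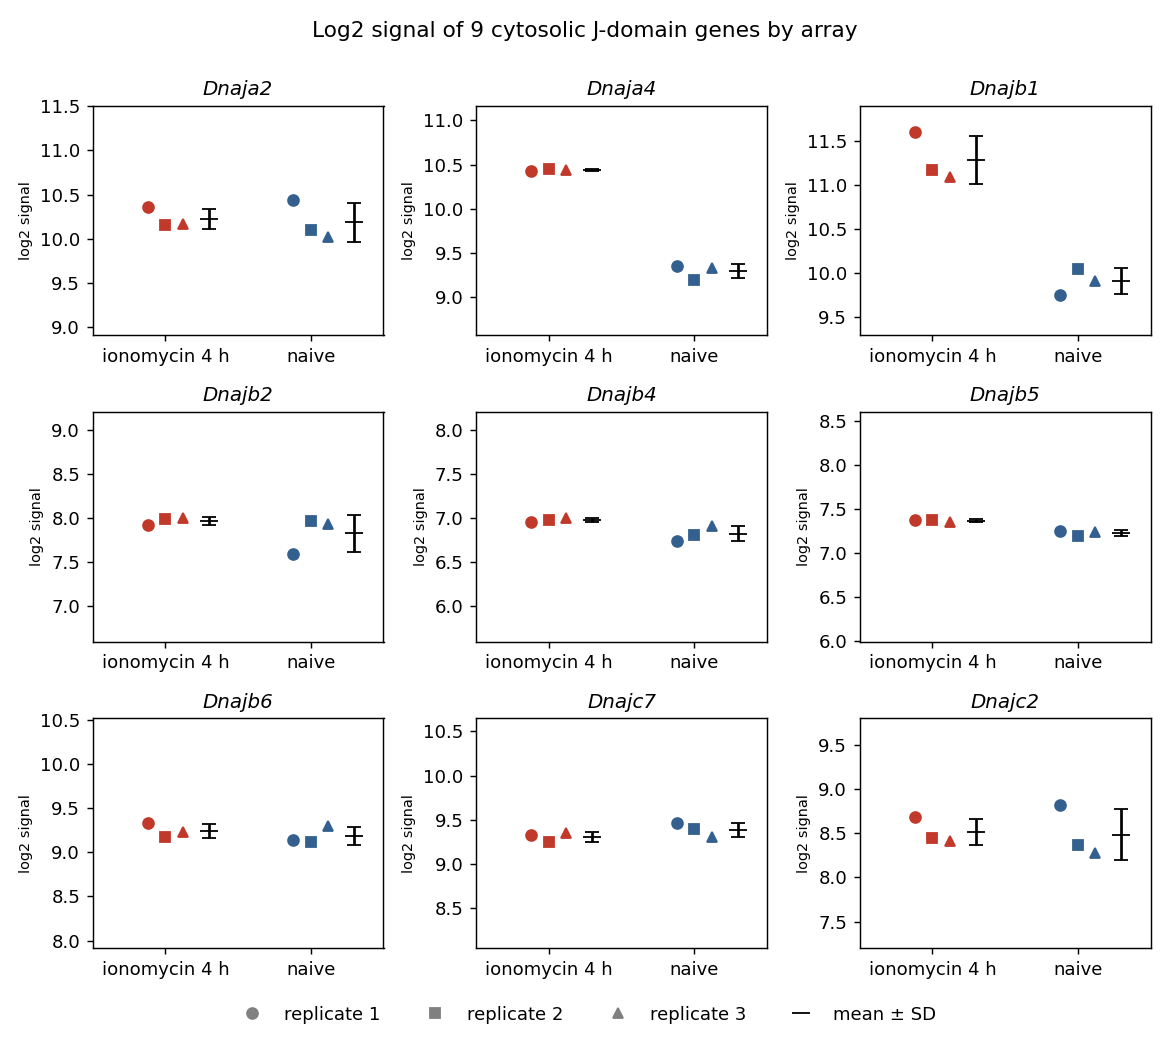
Log2 signal of the 9 measured members on each array, with ionomycin arrays (red) left of naive arrays (blue). Marker shapes give the replicate number, black bars the mean ± SD (n = 3), and every panel spans the same number of log2 units. Only for Dnaja4 and Dnajb1 are the groups more than 1 log2 unit apart.

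Dnaja4, a class A cochaperone of HSP70, had log2 signals of 10.43, 10.45 and 10.43 in ionomycin cells, against 9.35, 9.20 and 9.33 in naive cells. The ionomycin arrays were nearly equal, and the lowest of them was 1.08 above the highest naive array. The mean was 10.44 ± 0.01 after ionomycin and 9.29 ± 0.08 in naive cells (SD, n = 3 each). This is a 2.21-fold rise (log2 difference 1.15 ± 0.06 SE, 95% interval 0.99 to 1.30, limma adjusted p = 0.00549). Between arrays of the same replicate number the difference was 1.08, 1.26 and 1.10, so replicate 1 did not depart from the others. With the replicate number as a block the rise passed as well (limma adjusted p = 0.0231). It did not pass without ionomycin replicate 2 (adjusted p = 0.107) or 3 (0.0643), where the difference was still 1.14 and 1.15. Without both replicate 1 arrays it was 1.18 (adjusted p = 0.00337).

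Dnajb1, the classical stress-inducible HSP40, which with HSC70 and HSP110 takes protein aggregates apart, had log2 signals of 11.60, 11.17 and 11.09 in ionomycin cells, against 9.75, 10.05 and 9.91 in naive cells. Replicate 1 held both the highest ionomycin and the lowest naive value, yet the groups stayed 1.04 apart at their nearest. The mean was 11.29 ± 0.27 after ionomycin and 9.91 ± 0.15 in naive cells (SD, n = 3 each). Dnajb1 thus rose 2.60-fold (log2 difference 1.38 ± 0.15 SE, 95% interval 1.02 to 1.74, limma adjusted p = 0.0340). The difference was 1.84 at replicate number 1 and 1.12 and 1.18 at numbers 2 and 3. With the replicate number as a block Dnajb1 did not pass (limma adjusted p = 0.0604), which left Dnaja4 as the 1 member called, where 0.395% of all genes were called higher. With the block of 2 levels both passed (adjusted p = 0.0125 for Dnajb1 and 0.00186 for Dnaja4), and 2.25% of all genes were called higher. Dnajb1 was also lost without naive replicate 1 (adjusted p = 0.0535), 2 (0.140) or 3 (0.123), without ionomycin replicate 2 (0.180) or 3 (0.118), and after centring of the arrays (0.0531), with differences from 1.30 to 1.48 in these fits. Without ionomycin replicate 1, which held the highest value, it passed (adjusted p = 0.0444, difference 1.22), as it did without both replicate 1 arrays (adjusted p = 0.00449, difference 1.15).

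Stretches of promoter are shown for both genes that rose and for Dnajb6, the 1 member with a perfect heat shock element of 3 repeats in its window. They come from RefSeq, build GRCm38.p6, on the + strand, and end at the base before an annotated transcript start. Capitals mark GAANNTTC in Dnaja4, 1 of 2 CCAAT boxes (read as ATTGG) in Dnajb1 and GAANNTTCNNGAA in Dnajb6, where N is any base. The stretches are chr9:54699439-54699558 for Dnaja4, chr8:83608015-83608174 for Dnajb1 and chr5:29735778-29735897 for Dnajb6.
Dnaja4: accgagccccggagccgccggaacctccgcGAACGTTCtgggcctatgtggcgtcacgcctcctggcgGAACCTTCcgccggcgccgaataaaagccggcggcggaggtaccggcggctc
Dnajb1: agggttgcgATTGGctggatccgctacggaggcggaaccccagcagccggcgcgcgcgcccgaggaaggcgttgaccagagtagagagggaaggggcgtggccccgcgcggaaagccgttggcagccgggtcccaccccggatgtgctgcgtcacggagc
Dnajb6: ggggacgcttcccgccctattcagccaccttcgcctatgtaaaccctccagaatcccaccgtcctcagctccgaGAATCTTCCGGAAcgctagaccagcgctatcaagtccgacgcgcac

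RefSeq promoter windows, from 250 bases before to 50 after a start, were at hand for 9 of the 10 members, 19 windows in all. Both strands were searched. The pair GAANNTTC lay in 4 of the 19 windows, of 3 members (Dnaja1, Dnaja4 and Dnajb6), and in 7.86% of all 32851 windows. Dnaja4 held 2 copies, from -90 to -83 and from -52 to -45 before the second of its 2 annotated starts, and none before the first. The opposite pair TTCNNGAA lay in 3 of the 19 windows, of 2 members (Dnajb4 and Dnajb6), and in 8.52% of all windows. In Dnajb6 both pairs overlap and form the 3-repeat element GAANNTTCNNGAA from -46 to -34, which with its reverse TTCNNGAANNTTC lies in 0.603% of all windows. The same site lies from -127 to -115 of the second Dnajb6 start, so the 2 windows of this gene overlap and are not separate finds. Dnajb1 held neither pair in the windows of its 2 starts. Its 2 CCAAT boxes lay from -151 to -147 and from 11 to 15 at the first start. Such boxes were in 7 of the 19 windows, of 4 members (Dnaja1, Dnajb1, Dnajb5 and Dnajc7), and in 37.4% of all windows. Only perfect matches were searched, and they describe sequence, not binding.

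**Figure D2:**
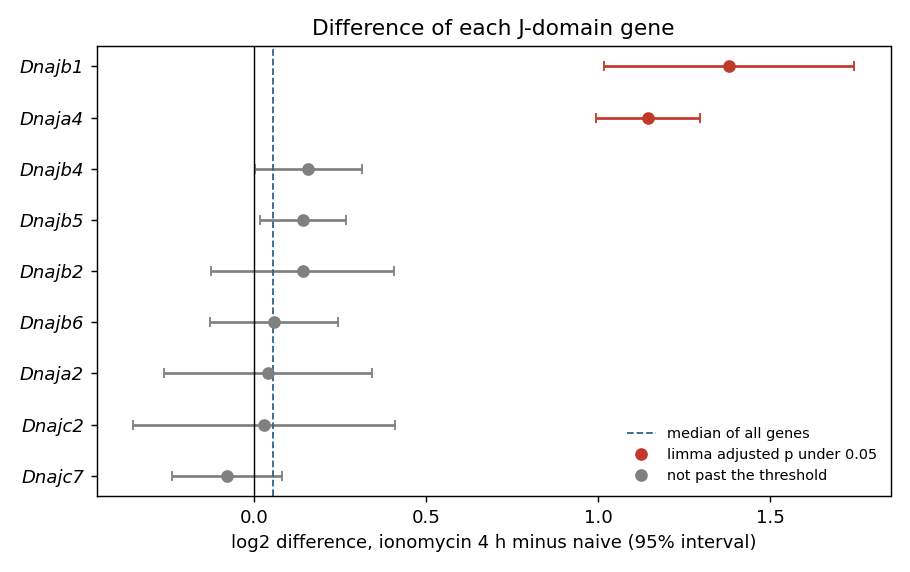
Log2 difference, ionomycin minus naive, of each measured member (points) with its 95% interval from limma (bars) and the median of all genes (dashed line). Dnajb1 at 1.38 and Dnaja4 at 1.15 (red) lie apart from the other 7, which run from -0.08 to 0.16.

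The other class A member measured, Dnaja2, helps HSC70 refold and hold soluble clients. Its log2 signals were 10.36, 10.15 and 10.17 in ionomycin cells, against 10.44, 10.10 and 10.02 in naive cells. Replicate 1 was the highest array in both groups and the groups overlap. The log2 difference was 0.04 ± 0.12 SE (95% interval -0.26 to 0.34, limma adjusted p = 0.880), and it was -0.03 with centred arrays.

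Among the other class B members, Dnajb4, a close relative of Dnajb1, had log2 signals of 6.955, 6.978 and 7.004 in ionomycin cells, against 6.74, 6.81 and 6.91 in naive cells. Dnajb5, another close relative of Dnajb1, had 7.37, 7.38 and 7.35 in ionomycin cells, against 7.25, 7.19 and 7.24 in naive cells. In both genes all ionomycin arrays lay above all naive arrays, by a margin of 0.04 in Dnajb4 and 0.10 in Dnajb5. With Dnaja4 and Dnajb1 this made 4 of 9 members with no overlap and a higher level after ionomycin, where 18.9% of all genes had the same. The same 4 members had an unadjusted limma p under 0.05, as did 10.2% of all genes in that direction. The differences were small, at 0.16 ± 0.06 SE for Dnajb4 (limma adjusted p = 0.319) and 0.14 ± 0.05 SE for Dnajb5 (adjusted p = 0.289). Centring of the arrays brought them to 0.09 and 0.08.

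Dnajb2, whose product binds ubiquitin and passes clients to the proteasome, had log2 signals of 7.916, 7.995 and 7.999 in ionomycin cells, against 7.59, 7.97 and 7.93 in naive cells. Naive replicate 1 was low and the other 5 arrays lay close together. The difference of 0.14 ± 0.11 SE (limma adjusted p = 0.530) became 0.02 without naive replicate 1. Dnajb6, which keeps polyglutamine proteins from aggregating, had 9.33, 9.17 and 9.23 in ionomycin cells, against 9.14, 9.11 and 9.30 in naive cells. These groups overlap, and the difference was 0.06 ± 0.08 SE (95% interval -0.13 to 0.24, limma adjusted p = 0.724), or -0.01 with centred arrays.

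Of class C, Dnajc7, whose tetratricopeptide repeats bind both HSP70 and HSP90, had log2 signals of 9.33, 9.25 and 9.35 in ionomycin cells, against 9.46, 9.40 and 9.30 in naive cells. It was the 1 member with a mean below that of naive cells, and the groups overlap (log2 difference -0.08 ± 0.07 SE, limma adjusted p = 0.553). Dnajc2, which sits on the ribosome with the HSP70 relative encoded by Hspa14 and meets newly made chains, had 8.69, 8.45 and 8.41 in ionomycin cells, against 8.82, 8.36 and 8.28 in naive cells. Replicate 1 was the highest array in each group, and the spread between replicates was larger than the difference of 0.03 ± 0.16 SE (95% interval -0.35 to 0.41, limma adjusted p = 0.935). Across the 7 members that did not pass, no 95% interval reached above 0.41 on the log2 scale, a 1.33-fold change. The intervals of Dnaja4 and Dnajb1 began at 0.99 and 1.02.

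Beyond these members, 34 other genes with a Dnaja, Dnajb or Dnajc symbol were measured, 28 of them above background. By limma 0 of these 34 rose and 0 fell, at an adjusted p under 0.05 over all 30102 genes. As 0.289% of all genes were called higher and 0.0598% lower, 0 calls in a list this short says little. At an unadjusted p under 0.05 there were 2 higher and 1 lower, where 10.2% and 5.44% of all genes were higher and lower. The differences ran from -0.34 to 0.20 with a median of 0.02, and -0.04 with centred arrays. The largest above background were those of Dnajc10, a disulfide reductase of the endoplasmic reticulum (-0.34 ± 0.14 SE, limma adjusted p = 0.322), and Dnajc13, which acts on endosomes (-0.29 ± 0.18 SE, adjusted p = 0.446). Dnajc10 had log2 signals of 8.99, 8.72 and 8.72 in ionomycin cells, against 9.42, 9.12 and 8.92 in naive cells, and the groups overlap. Dnajc24, a cofactor of diphthamide synthesis, was the 1 gene of the 34 with all ionomycin arrays below all naive arrays, a pattern found in 7.31% of all genes. Dnajb8 and Dnajc22 had all ionomycin arrays above all naive arrays, as did 18.9% of all genes, and were not above background. These 3 genes were named after their values were seen.

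**Figure D3:**
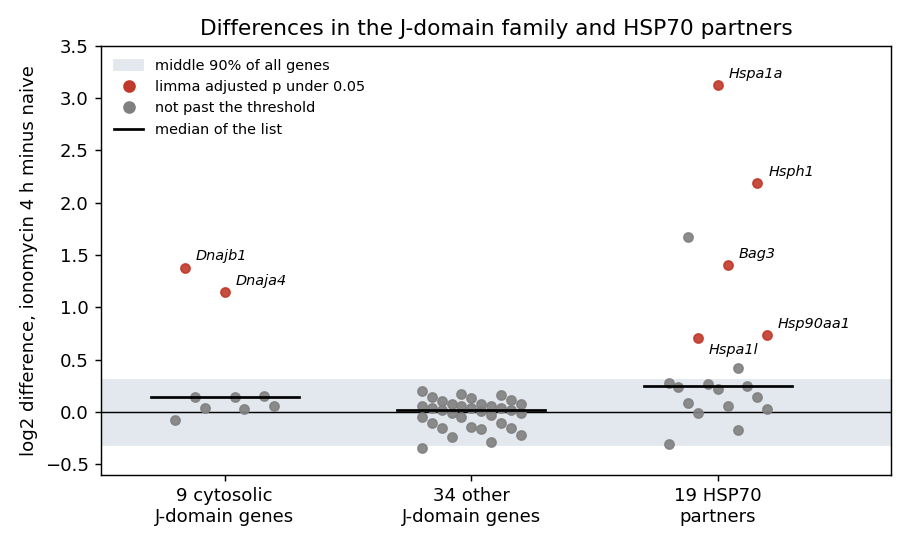
Log2 difference, ionomycin minus naive, for the 9 measured members, the 34 other J-domain genes and 19 HSP70 partners; each point is a gene, black lines are list medians and the grey band holds the middle 90% of all genes (-0.32 to 0.30). Called genes (red) are named: 2 members, 0 other J-domain genes and 5 partners, with Hspa1l drawn at its fitted difference of 0.71 although its naive level was not above background.

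The genes that work with J-domain proteins were taken as a list of 23 HSP70 and HSP90 chaperones, exchange factors, adaptors and HSF genes, of which 19 were measured. Of these 5 rose, 0 fell and 14 did not pass, where 0.289% of all genes were called higher and 0.0598% lower. The list was chosen with earlier results of these data known, so these shares are given for scale only. The median difference of the list was 0.24, and 0.18 with centred arrays. The inducible HSP70 gene Hspa1a had log2 signals of 13.73, 13.77 and 13.69 in ionomycin cells, against 9.97, 10.96 and 10.90 in naive cells. Its naive replicate 1 was low, as for Dnajb1, and the rise was 8.71-fold (limma adjusted p = 0.0153), from a row that cannot separate the near-identical Hspa1b. Hsph1, the HSP110 exchange factor (4.55-fold, limma adjusted p = 0.0153), and Bag3, which ties HSP70 to autophagy (2.64-fold, adjusted p = 0.0395), rose too. So did Hsp90aa1, the inducible cytosolic HSP90 (1.66-fold, limma adjusted p = 0.0153), and Hspa1l, a testis-enriched HSP70 (at least 1.30-fold). The naive mean of Hspa1l was 5.66, not above background, so its fold was taken against the background level and is a lower bound. This bound was not tested, and the call rests on the fitted difference of 0.71 (limma adjusted p = 0.0451). Hspa1l passed the background mark only through its ionomycin arrays. With the replicate number as a block 3 of the list rose, and Bag3 (limma adjusted p = 0.0536) and Hspa1l (0.0548) did not. With the block of 2 levels 7 rose, the 5 above, Hspa8 and the heat shock factor gene Hsf2 (adjusted p = 0.0270), which was named after its values were seen. The count was 2 without ionomycin replicate 1, where 35 of all genes were called higher. It was 0 without naive replicate 2 or 3 or ionomycin replicate 2 or 3. In those fits 13, 8, 1 and 7 of all genes were called higher. Hspa8, the constitutive HSC70 that most J-domain proteins serve, was at 14.21 ± 0.06 after ionomycin and 13.95 ± 0.13 in naive cells (SD, n = 3 each, log2 difference 0.26 ± 0.08 SE, limma adjusted p = 0.256, and 0.0491 with the block of 2 levels). Hspa14, the ribosome partner of Dnajc2, was at 8.60 ± 0.05 after ionomycin and 8.32 ± 0.06 in naive cells (SD, n = 3 each, difference 0.28 ± 0.06 SE, adjusted p = 0.147).

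The profile of Dnajb1 was set against all other genes above background, each as log2 signal minus its own naive mean on the 6 arrays. Likeness was the root mean square distance between profiles, in log2 units, with no test. The nearest 5 were Ch25h, which makes 25-hydroxycholesterol, at 0.104, then the caveolin gene Cav1 at 0.125, the cytokine gene Lif at 0.137, the chemokine gene Xcl1 at 0.141 and Faah, a hydrolase of fatty acid amides, at 0.153. Of these Ch25h and Cav1 rose, while Lif (limma adjusted p = 0.0780), Xcl1 (0.0593) and Faah (0.0945) did not pass. With the replicate number as a block Ch25h did not pass either (limma adjusted p = 0.0521), and Cav1 did (0.0372). With the block of 2 levels Ch25h and Cav1 passed, and so did Lif (limma adjusted p = 0.0324), Xcl1 (0.0179) and Faah (0.0217). A shared order of the arrays, with ionomycin replicate 1 highest, follows from the choice by likeness. Ch25h had log2 differences of 1.64, 1.29 and 1.00 at the 3 replicate numbers, close to the 1.84, 1.12 and 1.18 of Dnajb1. No other member and no HSP70 partner was among these 5, and distances beyond them are not given. The cut at 5 therefore does not show that Dnajb1 differs from its partners. Bag3, outside the 5 and picked after its values were seen, had differences of 1.81, 1.15 and 1.24 at the 3 replicate numbers. Its log2 signals were 11.30, 11.27 and 11.25 in ionomycin cells, against 9.49, 10.12 and 10.00 in naive cells. The ionomycin arrays of Bag3 were thus nearly equal, while those of Dnajb1 were at 11.60, 11.17 and 11.09. The same search for Dnaja1 could not be made without a row of its own.

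**Figure D4:**
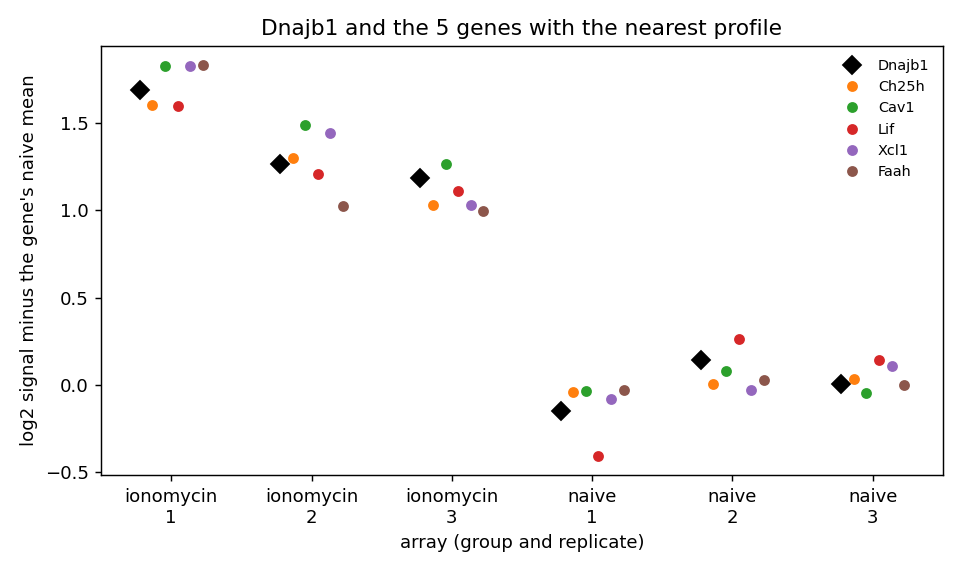
Log2 signal minus the gene's own naive mean on each of the 6 arrays, for Dnajb1 (black diamonds) and the 5 genes with the nearest profile (coloured circles). The genes were chosen for their likeness to Dnajb1, so the shared pattern is a description.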

How the data were processed

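Total RNA of 3 ionomycin and 3 naive BMMC samples was measured on whole-transcript Affymetrix arrays. The authors deposited processed log2 signals, 65770 rows by 6 arrays, made with the R package oligo per the submitters' processing notes. The sources used here give neither its version nor the normalization or genome build. The log2 scale was inferred from the range of values (3.01 to 14.6), and how arrays were centred is unknown. Array medians were 5.96, 6.03 and 6.03 for ionomycin replicates 1, 2 and 3, and 5.88, 5.95 and 5.99 for naive replicates 1, 2 and 3. The number of arrays limits the precision.

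Rows were named through the platform annotation (30439 with 1 symbol, 2146 with several, 33185 with none), and 827 symbols were updated through Entrez IDs with RefSeq GRCm38.p6. For 252 genes more than 1 row qualified and the brightest was used, which gave 30102 genes. Background was the 95th percentile of 1752 chemosensory receptor genes, 5.99; 19200 genes were above it. Sample titles gave the groups and replicate numbers.

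The comparison of ionomycin with naive used lmFit and eBayes of limma 3.58.1 under R 4.3.3, two-sided, without a block or filter, with Benjamini-Hochberg adjustment over all genes. Differences are ionomycin minus naive. Every adjusted p is from limma. The procedure was tested on simulated data. Across genes, deviations from the group means of arrays sharing a replicate number correlated at 0.711, 0.476 and 0.469 for numbers 1, 2 and 3. All were above 0.1, so the number was used as a block in alternative fits. The 3 deviations of a group sum to 0, so replicate 1 standing apart in both groups also raises the values of numbers 2 and 3. They cannot show that numbers 2 and 3 pair the arrays. Values with the number as a block are given where they change a call. Alternatives were this block, a block of 2 levels, quantile normalization, centring, array weights, trended and robust eBayes, testing genes above background only, averaging a gene's rows, testing all rows, and leaving out arrays.

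All members were named, as were called genes of the other J-domain and HSP70 partner lists (or the 2 largest differences above background where fewer than 2 were called), Hspa8, Hspa14 and the 5 genes nearest to Dnajb1. Members and lists were chosen with earlier results of these data known. Promoter sequences are those of RefSeq.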

Additional observations from a re-analysis of the deposited data

How the results depend on the processing

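The counts of called members and of all called genes, and the log2 difference of each member, were recomputed under 16 alternatives, 6 of which left out 1 array. Dnaja4 passed in 14 and Dnajb1 in 9; both kept their direction in all 16, with differences from 1.08 to 1.21 and from 1.15 to 1.48. The number of members called higher, 2, was 1 with the replicate block and 1 with arrays centred on their median, and ran from 0 to 2 when 1 array was left out; 0 members fell under any alternative. Dnajb5 passed with array weights (difference 0.17, limma adjusted p = 0.0419). Over all genes 87 rose and 18 fell. The counts were 119 and 33 with the replicate block, 677 and 744 with the block of 2 levels, 2240 and 1654 with array weights, 423 and 429 without both replicate 1 arrays, 69 and 32 with centred arrays, and 9 fell with trend and robust settings. Without 1 array they ran from 1 to 95 higher and from 0 to 55 lower. Small differences of uncalled members changed sign. Dnaja2 was at -0.026 with centred arrays, -0.0043 without naive replicate 2, -0.042 without naive replicate 3 and -0.025 without ionomycin replicate 1. Dnajc2 was at -0.038, -0.033, -0.076 and -0.057 in these settings, and at 0.193 without naive replicate 1. Dnajb6 was at -0.010 with centred arrays and -0.0085 without both replicate 1 arrays. Counts of the other lists under the same alternatives were added after seeing the data: with array weights 1 other J-domain gene rose and 1 fell, and 10 HSP70 partners rose, against 3 with quantile normalization. The cause of these changes was not tested. All 9 measured members were above background, so no member's value was a bound.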
